A study of Mus musculus with 28 samples.

Results

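The 10 genes described here mark macrophages in the mouse liver. Of these, 7 mark the resident Kupffer cell (*Clec4f*, *Vsig4*, *Timd4*, *Marco*, *Cd5l*, *Cd163*, and *Folr2*), and 3 are shared by most macrophages (*Csf1r*, *Adgre1*, and *C1qa*). They were chosen by symbol as known markers, with earlier results of these data known. Each matched 1 of the 21935 genes in the table of counts, and 10 of 10 passed the filter on low counts, as did 12580 genes in all. Liver messenger RNA was sequenced from 28 male B6.V-Lepob/JRj mice (Lep ob/ob), which lack the hormone leptin in every tissue and become obese. The mice were obtained at an age of 5 weeks, and every mouse, controls included, was fed the Amylin liver nonalcoholic steatohepatitis (AMLN) diet, which is high in trans fat, cholesterol, and fructose, for 14 weeks before treatment and throughout it. Treatment was oral, once daily, for 2 weeks with vehicle (n = 10 mice) or with 30 mg/kg of either obeticholic acid (OCA; n = 9) or INT-787 (n = 9). Both drugs are agonists of the farnesoid X receptor (FXR), a nuclear receptor for bile acids. No lean or chow-fed mice were analysed here, so the levels have no healthy reference.

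Kupffer cells are macrophages that live in the sinusoids of the liver, where they take up particles, dying cells, and lipoproteins from portal blood. Their identity is kept by signals from neighboring endothelial, stellate, and parenchymal cells, and in steatohepatitis part of the resident population is known to be replaced by macrophages derived from blood monocytes, which gain resident markers at different speeds and gain *Timd4* late. The products of the 7 resident genes are mostly surface receptors for carbohydrates, complement, dying cells, hemoglobin, or folate, whereas the 3 shared genes encode a growth factor receptor, an adhesion receptor, and a complement subunit.

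The smallest library, vehicle replicate 6, held 1009593 counts, the next smallest 9313260, and the largest 22421506. In vehicle replicate 6, 1 count was worth 0.919 CPM (counts scaled to a common library size), so the 0 counts there for *Timd4*, *Marco*, and *Cd163* allow up to 2.76 CPM (3 counts, counting error only). In 29 pairs of genes on opposite strands, the median ratio of the weak to the strong gene was 0.0610 in vehicle replicate 5 and at most 0.00226 in the other 27 mice. The exons of *Csf1r* overlap those of *Hmgxb3* on the opposite strand over 873 bases, and *Hmgxb3* itself was at 8.53 CPM in that mouse. The exons of *Folr2* overlap *Gm10602*, also on the opposite strand, over 975 bases. The share of such reads in the counts of either gene was not tested; without vehicle replicates 5 and 6 the calls of *Folr2*, *Csf1r*, and *C1qa* given below were kept (adjusted p = 0.0269, 0.0168, and 0.0349, edgeR). Of the genes of the 18 lists used below, *Clec7a* was missing from the counts, and no other gene was at 0 counts in all 28 mice.

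Promoters are shown first for *Timd4*, *Marco*, and *Cd163*, which varied together from mouse to mouse as described further below, and for *Vsig4*, which did not pass the test with any of these 3. The set of RefSeq promoter sequences used here (GRCm38.p6) held 7 of the 10 genes, those of the resident class. *Csf1r*, *Adgre1*, and *C1qa* were missing from that set, which says nothing about their starts in RefSeq. Printed are the 250 bases before the start of 3 weakly expressed genes, *Marco* (chr1:120505025-120505274, minus strand), *Timd4* (chr11:46810549-46810798, plus strand), and *Cd163* (chr6:124304401-124304650, plus strand), and of the more abundant *Vsig4* (chrX:96293439-96293688, minus strand). Capitals mark GAGGAA or GGAAGT on either strand, overlapping parts of the sequence preferred by PU.1, the factor encoded by *Spi1* that is required for macrophages.
Marco: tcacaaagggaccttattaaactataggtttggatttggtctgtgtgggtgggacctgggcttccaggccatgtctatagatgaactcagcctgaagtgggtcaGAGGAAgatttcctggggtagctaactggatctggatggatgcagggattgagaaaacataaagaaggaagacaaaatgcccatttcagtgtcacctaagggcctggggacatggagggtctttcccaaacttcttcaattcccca
Timd4: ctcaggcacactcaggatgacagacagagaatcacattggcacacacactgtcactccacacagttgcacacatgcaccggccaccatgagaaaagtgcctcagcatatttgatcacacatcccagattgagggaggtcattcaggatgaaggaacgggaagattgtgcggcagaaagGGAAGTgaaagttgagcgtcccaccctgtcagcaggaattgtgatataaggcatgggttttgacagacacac
Cd163: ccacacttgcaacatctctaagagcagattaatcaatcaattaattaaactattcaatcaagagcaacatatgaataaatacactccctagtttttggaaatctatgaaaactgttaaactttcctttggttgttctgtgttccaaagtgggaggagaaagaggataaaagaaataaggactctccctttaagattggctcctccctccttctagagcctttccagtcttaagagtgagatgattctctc
Vsig4: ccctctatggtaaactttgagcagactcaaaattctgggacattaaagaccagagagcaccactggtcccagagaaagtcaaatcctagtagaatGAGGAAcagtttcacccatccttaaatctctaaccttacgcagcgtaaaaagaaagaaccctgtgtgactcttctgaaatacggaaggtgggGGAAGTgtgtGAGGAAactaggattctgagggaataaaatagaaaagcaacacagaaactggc
Of the 7 resident genes in that set, 6 held at least 1 of these words in the 250 bases before the first start listed, *Cd163* being the exception, and over all 27025 genes with a promoter sequence 36.8% did. GAGGAA alone stood in 23.1% and GGAAGT alone in 19.99% of these promoters. *Vsig4* held GAGGAA at 2 places and GGAAGT at 1 place, *Marco* held GAGGAA once, and *Timd4* held GGAAGT once. *Folr2* has 2 starts in the table, the first with GGAAGT at 2 places and the second with neither word. A match of 6 letters is a description of the sequence and says nothing about binding.

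Under vehicle, the members covered a wide range of levels. Per kilobase of exon, *C1qa* stood highest at 111 ± 17.3 CPM per kb (SD, n = 10), followed by *Cd5l* at 105 ± 17.96, and these neighbors did not differ by more than their SDs. *C1qa* encodes a chain of C1q, the recognition part of the classical complement pathway, and *Cd5l* encodes AIM, a secreted scavenger protein bound to IgM. *Clec4f*, a lectin receptor found on Kupffer cells of rodents, followed at 30.3 ± 8.59 CPM per kb, *Csf1r*, the receptor for the survival factors CSF1 and IL-34, at 23.8 ± 2.74, and *Vsig4*, a complement receptor, at 21.9 ± 5.99, with differences between neighbors within the SDs. *Adgre1*, which encodes F4/80, and *Folr2*, the folate receptor of resident macrophages, had 10.1 ± 2.25 and 9.63 ± 2.40 CPM per kb and did not differ beyond the spread. *Marco*, a scavenger receptor for bacteria, was at 1.97 ± 2.34, *Timd4*, a receptor for phosphatidylserine on dying cells, at 0.948 ± 0.639, and *Cd163*, the receptor for hemoglobin bound to haptoglobin, at 0.226 ± 0.164 CPM per kb. The defining Kupffer cell genes *Clec4f* and *Vsig4* were thus present in every mouse, while *Timd4*, *Marco*, and *Cd163* were close to the limit of the shallow library.

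The first comparison asked how INT-787 differed from vehicle. Of the 10 members, 3 fell, *Folr2* among the 7 resident genes and *Csf1r* and *C1qa* among the 3 shared genes, and 0 rose. Over all tested genes 19.6% passed the test in this comparison (9.48% lower, 10.2% higher). The 3 calls, each of them lower, stand beside the 9.48%. With 10 genes, chosen with earlier results of these data known, no verdict on that share was drawn. In whole liver, fewer macrophages and less RNA per macrophage cannot be told apart.

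*Folr2* ranged from 7.79 to 20.1 CPM under vehicle (median, 14.5) and from 6.30 to 13.3 CPM under INT-787 (median, 8.86). The groups overlapped, but 9 of 9 mice given INT-787 were below the vehicle median and 4 were below every vehicle mouse. The log2 fold change was -0.66 ± 0.19 (SE; adjusted p = 0.0118, edgeR quasi-likelihood test with Benjamini-Hochberg adjustment, as for all adjusted p values below unless another tool is named). The call was kept in 28 of 28 fits that left out 1 mouse.

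*Csf1r* showed the cleanest separation of groups by mouse, with 8 of 9 INT-787 mice below every vehicle mouse. Its level ranged from 114 to 161 CPM under vehicle (median, 136) and from 80.6 to 121 CPM under INT-787 (median, 102). The log2 fold change was -0.46 ± 0.13 (SE; adjusted p = 0.0126), a mean 27.2% lower, and the call was kept in 28 of 28 fits without 1 mouse. *C1qa* ranged from 86.8 to 144 CPM under vehicle (median, 115) and from 51.8 to 130 CPM under INT-787 (median, 80.6). Of the INT-787 mice, 6 were below every vehicle mouse, and replicate 8, at 130 CPM, lay within the upper part of the vehicle range. Its log2 fold change was -0.51 ± 0.17 (SE; adjusted p = 0.0268), and without INT-787 replicate 1, 4, or 9 or vehicle replicate 9 the adjusted p was 0.0511 to 0.0563.

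*Cd5l* and *Adgre1* had negative fold changes that did not pass the test. *Cd5l* ranged from 154 to 279 CPM under vehicle (median, 216) and from 105 to 213 CPM under INT-787 (median, 167), with 9 of 9 INT-787 mice below the vehicle median. Its log2 fold change was -0.42 ± 0.16 (SE; adjusted p = 0.0529), on the threshold: it passed under 8 of 12 other settings and in 5 of 28 fits without 1 mouse. *Adgre1* had 18.7 to 45.5 CPM under vehicle (median, 33.9) and 16.5 to 41.2 CPM under INT-787 (median, 23.1), with a log2 fold change of -0.41 ± 0.21 (SE; adjusted p = 0.165).

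*Clec4f* and *Vsig4*, the 2 abundant and most specific Kupffer cell genes, overlapped widely between groups. *Clec4f* ranged from 34.6 to 98.1 CPM under vehicle (median, 83.1) and from 43.5 to 93.0 CPM under INT-787 (median, 52.2), and 8 of 9 INT-787 mice were below the vehicle median. The log2 fold change of *Clec4f* was -0.30 with a 95% confidence interval from -0.74 to 0.14 (adjusted p = 0.357). *Vsig4* ranged from 15.3 to 43.0 CPM under vehicle (median, 33.4) and from 16.6 to 42.3 CPM under INT-787 (median, 27.4), with a log2 fold change of -0.17 and an interval from -0.54 to 0.19 (adjusted p = 0.551). These intervals leave room for a fall of the size seen for *Csf1r*.

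*Marco*, *Timd4*, and *Cd163* had positive log2 fold changes of 1.74 ± 0.72, 0.68 ± 0.51, and 0.69 ± 0.49 (SE) that did not pass the test (adjusted p = 0.0867, 0.384, and 0.356). *Marco* had a median of 2.55 CPM under vehicle (0 to 15.1) and 2.89 CPM under INT-787 (0.578 to 68.2). *Timd4* had a median of 2.32 CPM under vehicle (0 to 3.85) and 2.97 CPM under INT-787 (0.289 to 9.91). *Cd163* had a median of 1.58 CPM under vehicle (0 to 2.38) and 1.97 CPM under INT-787 (0.0495 to 6.21). INT-787 replicates 5 and 8 held the highest values of all 3 genes and are described with the direct comparison of the drugs. Without both mice the log2 fold changes turned negative, to -0.76 for *Marco*, -0.16 for *Timd4*, and -0.12 for *Cd163*, and did not pass (adjusted p = 0.401, 0.878, and 0.909). Without vehicle replicate 10, the mouse with 15.1 CPM, *Marco* passed the test (log2 fold change 2.28, adjusted p = 0.0285).

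**Figure D1:**
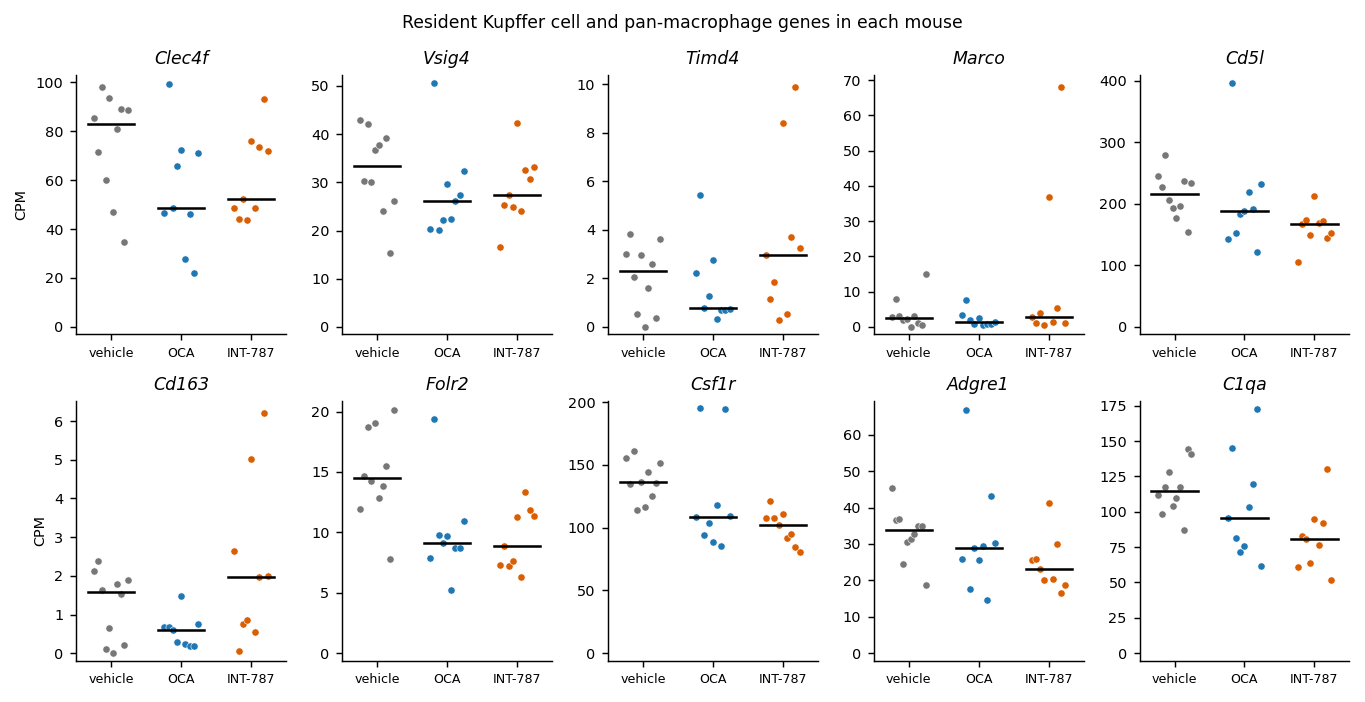
CPM (linear axis from 0) of the 10 genes in each of 28 mice, by treatment; points are mice, in order of replicate number, and black lines are group medians. *Csf1r*, *C1qa*, and *Folr2* sit lower under INT-787, and INT-787 replicates 5 and 8 stand far above the other mice for *Marco* (36.7 and 68.2 CPM), *Timd4*, and *Cd163*.

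The second comparison asked the same of OCA. None of the 10 members passed the test, beside 6.6% of all tested genes (4.15% higher, 2.45% lower). At an unadjusted p under 0.05 there were 3 of the 10 members and 2332 of the 12580 genes tested. The log2 fold changes were below 0 for 10 of 10 members, but that of *Adgre1* was 0.0050 without vehicle replicate 1, 0.014 without OCA replicate 3, and 0.031 without OCA replicate 7. The comparison used the same vehicle mice as that of INT-787, so the fold changes against vehicle are not independent. The resident genes had a median log2 fold change of -0.45 and the shared genes one of -0.17, beside 0.02 for all genes. With 1 mouse left out the former was -0.78 (without OCA replicate 2) to -0.34 (without OCA replicate 8), and the latter -0.29 (without OCA replicate 8) to -0.10 (without OCA replicate 9).

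*Folr2* came closest, ranging from 5.24 to 19.4 CPM under OCA (median, 9.10), with 8 of 9 mice below the vehicle median. Its log2 fold change was -0.59 ± 0.19 (SE; adjusted p = 0.0504), which passed under 5 of 12 other settings and in 7 of 28 fits without 1 mouse. OCA replicate 2, at 19.4 CPM, was the exception, and without it the log2 fold change was -0.78 (adjusted p = 0.00276). DESeq2 also called *Folr2* (log2 fold change -0.61, adjusted p = 0.0284).

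*Cd163* had its lowest median under OCA, 0.599 CPM (0.186 to 1.48), and 9 of 9 mice were below the vehicle median, but the ranges overlapped. Its log2 fold change was -1.31 ± 0.56 (SE; adjusted p = 0.184). *Marco* ranged from 0.598 to 7.77 CPM (median, 1.302; log2 fold change -0.89 ± 0.78, adjusted p = 0.614), and *Timd4* from 0.322 to 5.43 CPM (median, 0.798; log2 fold change -0.44 ± 0.54, adjusted p = 0.751). The OCA libraries held 3 to 16 counts of *Cd163*, 7 to 136 of *Marco*, and 7 to 95 of *Timd4*, and OCA replicate 2 was the highest OCA mouse for *Marco* and *Timd4*.

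*Clec4f* ranged from 22.1 to 99.3 CPM under OCA (median, 48.6), with 2 mice below and 1 above every vehicle mouse (log2 fold change -0.45 ± 0.22, adjusted p = 0.262). *Vsig4* ranged from 20.03 to 50.6 CPM (median, 26.1; log2 fold change -0.21, adjusted p = 0.612) and *Cd5l* from 122 to 395 CPM (median, 188; log2 fold change -0.08, adjusted p = 0.854). *Csf1r* had a median of 109 CPM under OCA with 6 of 9 mice below every vehicle mouse, but replicates 2 and 8 were at 195 CPM each, above every vehicle mouse, and the log2 fold change was -0.17 with an interval from -0.44 to 0.09 (adjusted p = 0.536). *Adgre1* ranged from 14.6 to 66.7 CPM (median, 28.97; adjusted p = 0.933) and *C1qa* from 61.8 to 172 CPM (median, 95.5; adjusted p = 0.656). The OCA mice were thus more spread than the vehicle mice for the shared genes, with an SD of 42.7 against 15.8 CPM for *Csf1r* and of 36.8 against 17.98 CPM for *C1qa*.

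**Figure D2:**
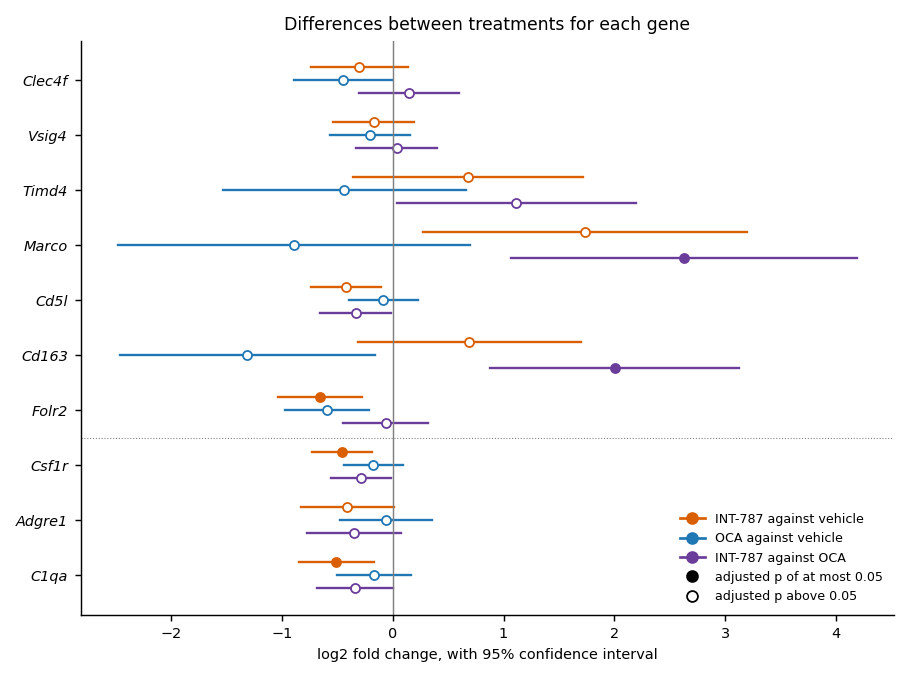
Log2 fold change (x axis) with its 95% confidence interval for each gene in the 3 comparisons; filled points passed an adjusted p of 0.05 and open points did not, and the dotted line parts resident from shared genes. *Folr2*, *Csf1r*, and *C1qa* are filled below 0 for INT-787 against vehicle, and *Marco* and *Cd163* are filled above 0 for INT-787 against OCA, with wide intervals.

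The third comparison set the drugs against each other at the same dose and time. Of the 10 members, *Marco* and *Cd163* were higher under INT-787 than under OCA and 0 were lower, beside 5.38% of all tested genes (2.19% higher, 3.19% lower). The log2 fold change was 2.63 ± 0.77 for *Marco* (SE; 95% confidence interval, 1.06 to 4.19; adjusted p = 0.0371) and 2.00 ± 0.55 for *Cd163* (interval, 0.88 to 3.13; adjusted p = 0.0252). Both calls were lost without either of 2 INT-787 mice, replicates 5 and 8.

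INT-787 replicates 5 and 8 had *Marco* at 36.7 and 68.2 CPM (608 and 977 counts), against 0.578 to 5.41 CPM in the other 7 INT-787 mice and at most 15.1 CPM in any mouse of the other groups. The same mice were the highest of all 28 for *Timd4* (8.40 and 9.91 CPM) and *Cd163* (5.01 and 6.21 CPM). Without replicate 8 the log2 fold change of *Marco* was 1.62 (adjusted p = 0.191) and that of *Cd163* was 1.64 (adjusted p = 0.0729). Without replicate 5 they were 2.28 (adjusted p = 0.0826) and 1.75 (adjusted p = 0.0627). Without both, *Marco* was at 0.13 (adjusted p = 0.953) and *Cd163* at 1.18 (adjusted p = 0.224). The median of *Marco* over those 7 mice was 1.496 CPM, against 1.302 CPM under OCA.

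The calls also depended on the model. With limma-voom, *Marco* was at 1.38 (adjusted p = 0.364) and *Cd163* at 1.38 (adjusted p = 0.304), and with the run of neighboring sample numbers in the labels that a mouse belongs to as a further factor in edgeR they were at 1.42 (adjusted p = 0.425) and 1.79 (adjusted p = 0.111). An exact permutation test of mean log2 CPM (two-sided, 1 of 30 such tests and chosen after the data were seen) gave an unadjusted p of 0.149 for *Marco* and of 0.0410 for *Cd163*. Leaving out OCA mice 1 at a time also ended calls, that of *Marco* without replicate 1, 4, 5, 6, 7, 8, or 9 (log2 fold changes of 2.49 to 2.72, adjusted p of at most 0.0805) and that of *Cd163* without replicate 6 or 8 (log2 fold changes of 1.88 and 1.89, adjusted p of at most 0.0568).

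INT-787 replicate 8 was checked against the other members and other cell types. It was the highest of 9 INT-787 mice for *Clec4f* (93.0 CPM) and *C1qa* (130 CPM), 4th for *Vsig4* (30.8 CPM), 8th for *Cd5l* (144 CPM) and *Csf1r* (84.2 CPM), and the lowest for *Adgre1* (16.5 CPM). The members therefore did not move as 1 block in that mouse. Its summed T and NK cell markers reached 18.7 CPM, the highest of the INT-787 group (lowest, 2.95 CPM), and its dendritic cell (6.63 CPM) and neutrophil markers (6.56 CPM) and macrophage transcription factors (324 CPM) were also the highest and its B cell markers (2.79 CPM) the 2nd highest, while its summed endothelial markers (165 CPM) and stellate cell markers (506 CPM) were the lowest of the group. Replicate 5 was instead the highest of its group for *Vsig4* (42.3 CPM), *Cd5l* (213 CPM), and *Adgre1* (41.2 CPM), with T and NK cell markers at 3.62 CPM. The part of these other cells in the *Marco* values was not tested.

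For the other 8 members the drugs could not be told apart at the threshold, and the intervals give the size of difference that the data allow. *Timd4* had a log2 fold change of 1.12 (interval, 0.04 to 2.19; adjusted p = 0.240). *Csf1r*, *C1qa*, *Adgre1*, and *Cd5l* were at -0.29 (interval, -0.56 to -0.01), -0.34 (-0.68 to 0.00), -0.35 (-0.77 to 0.08), and -0.34 (-0.66 to -0.01), with adjusted p values of 0.237 to 0.390. *Folr2* at -0.07 (interval, -0.45 to 0.32), *Vsig4* at 0.03 (-0.33 to 0.40), and *Clec4f* at 0.14 (-0.31 to 0.59) were nearest 0. That *Csf1r* and *C1qa* passed against vehicle under INT-787 and not under OCA does not show that the drugs differed on them.

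The members were next set beside other lists of macrophage genes. For these lists and those below, the share of all tested genes called is the background. Under INT-787 against vehicle, 9.48% were lower and 10.2% higher (median log2 fold change, -0.001). Under OCA against vehicle, 2.45% were lower and 4.15% higher (median, 0.02). For INT-787 against OCA, 3.19% were lower and 2.19% higher (median, -0.007). Under INT-787, the list of 14 other macrophage genes had 10 that fell and 0 that rose, with a median log2 fold change of -0.59, against 1 of 7 and a median of -0.17 for the resident members. Without INT-787 replicates 5 and 8 these medians were -0.66 and -0.47, and with 1 mouse left out that of the resident members was -0.26 (without INT-787 replicate 5) to -0.10 (without INT-787 replicate 1). The 4 with the deepest fall were *Fcgr1*, an Fc receptor for IgG (-0.87, adjusted p = 0.00128), *Fcer1g*, the signaling chain of Fc receptors (-0.83, adjusted p = 0.00464), *Aif1*, an actin-binding protein of macrophages (-0.74, adjusted p = 0.0350, kept in 18 of 28 fits without 1 mouse), and *Cd68*, a lysosomal glycoprotein (-0.69, adjusted p = 0.000846). The partners of *C1qa* in the C1q complex fell too, *C1qb* by 0.61 (adjusted p = 0.00263) and *C1qc* by 0.56 on the log2 scale (adjusted p = 0.00770). The count was 8 to 11 of 14 with 1 mouse left out and 9 without INT-787 replicates 5 and 8. Under OCA 0 of the 14 passed by edgeR (1 at an unadjusted p under 0.05), and 4 were lower under INT-787 than under OCA (2, without OCA replicate 8, to 7, without OCA replicate 3, with 1 mouse left out, and 5 without INT-787 replicates 5 and 8).

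With all mice and edgeR, most of the listed markers of monocytes and of lipid-associated macrophages, the cells that gather around fat-laden hepatocytes, fell under INT-787. The list of lipid-associated macrophage markers held 10 genes, of which *Clec7a* was missing from the counts. Of the 9 others, 8 fell under INT-787 against vehicle (median, -0.72) and 8 were lower than under OCA (median, -0.81). Of 6 monocyte markers, 4 fell (median, -0.86) and 3 were lower than under OCA (median, -0.69). *Lgals3*, which encodes galectin-3, had the deepest fall of the former (-1.31, adjusted p = 3.80e-07), and *Ccr2*, the receptor by which monocytes enter tissue, of the latter (-1.14, adjusted p = 2.13e-05). *Cd63*, a tetraspanin, *Fabp5*, a fatty acid carrier, and *Spp1*, which encodes osteopontin, fell by 0.94, 0.91, and 0.74 on the log2 scale (adjusted p of at most 0.00207). *Cx3cr1*, the fractalkine receptor, *Chil3*, a chitinase-like protein, and *Plac8* fell by 0.95, 0.98, and 0.72 (adjusted p of at most 0.0196). *Chil3* lost its call without vehicle replicates 5 and 6 (adjusted p = 0.0521) and with limma-voom (adjusted p = 0.0585). *Spp1* and *Gpnmb*, a lysosomal glycoprotein, had log2 fold changes of -1.12 and -1.13 between INT-787 and OCA (adjusted p = 0.000134 and 0.00329). Under OCA 0 genes of either list passed by edgeR (2 of 9 lipid-associated and 0 of 6 monocyte markers at an unadjusted p under 0.05). Without INT-787 replicates 5 and 8, the counts against vehicle were 7 of 9 and 4 of 6, and the counts lower than under OCA were 6 of 9 and 2 of 6. The counts against vehicle were 6 of 9 and 3 of 6 without vehicle replicates 5 and 6, and 8 of 9 and 3 of 6 with limma-voom. Without OCA replicate 8 the counts lower than under OCA were also 6 of 9 and 2 of 6, and *Cx3cr1* and *Plac8* lost their calls (adjusted p = 0.131 and 0.0593). *Cx3cr1* kept its call against OCA in 18 of 28 fits without 1 mouse. The lists were not compared by a test, and the share of each kind of macrophage in the liver was not measured.

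**Figure D3:**
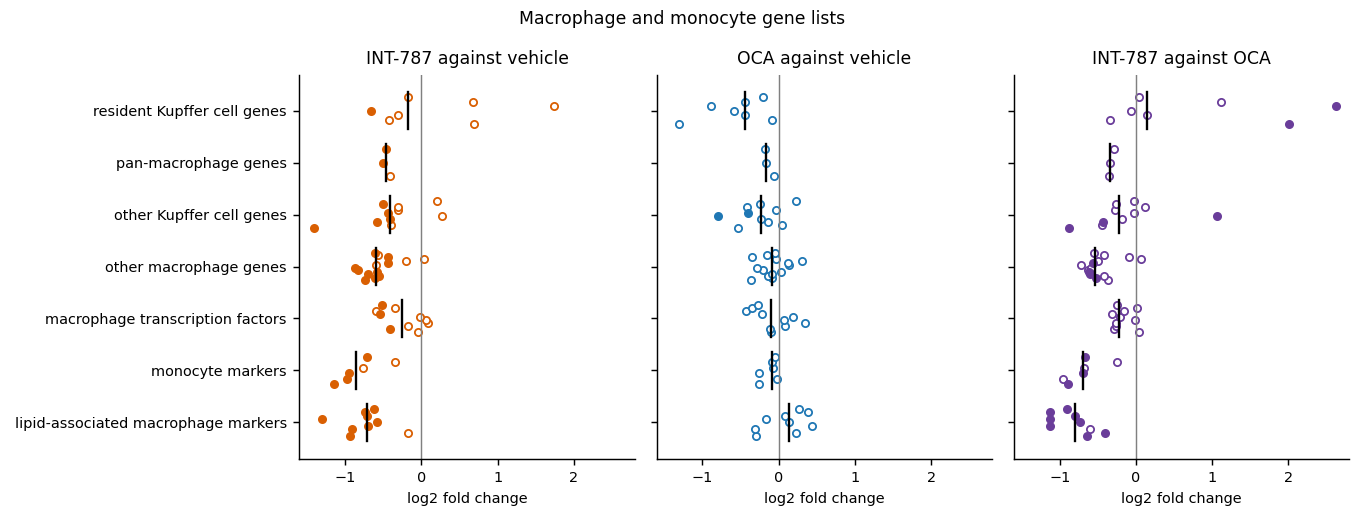
Log2 fold change (x axis) of each gene of 7 macrophage and monocyte lists in the 3 comparisons; filled points passed an adjusted p of 0.05, and black lines are list medians. Under INT-787 against vehicle the monocyte and lipid-associated markers lie mostly below -0.5 and are filled, whereas the resident genes spread from -0.66 to 1.74 with 1 filled; without INT-787 replicates 5 and 8 the resident genes lie between -0.76 and -0.12.

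Other Kupffer cell genes gave a mixed picture. Of 10, 5 fell under INT-787: *C6*, a terminal complement component that hepatocytes also make (-1.41, adjusted p = 3.38e-05), *Cd38*, an NAD-consuming enzyme (-0.58, adjusted p = 0.00158), *Slc11a1*, a metal transporter of phagosomes (-0.50, adjusted p = 0.00863), *Hmox1*, the heme-degrading oxygenase (-0.43, adjusted p = 0.00974), and *Clec1b*, a podoplanin receptor (-0.41, adjusted p = 0.0377). *Clec1b* lost its call in 9 of 28 fits without 1 mouse. *C6* and *Cd38* were also lower under INT-787 than under OCA (-0.88 and -0.44, adjusted p = 0.0207 and 0.0448), calls lost without INT-787 replicates 5 and 8 (adjusted p = 0.0514 and 0.0615). The call of *Cd38* was kept in 12 of 28 fits without 1 mouse. Under OCA, *Fcna*, a ficolin that starts the lectin complement pathway, and *Hmox1* fell, by 0.79 (adjusted p = 0.00591) and 0.41 on the log2 scale (adjusted p = 0.0350), *Hmox1* in 18 of 28 fits without 1 mouse.

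*Fcna* was the 1 gene of this list that was higher under INT-787 than under OCA, as *Marco* and *Cd163* were. Its mean was 13.6 ± 3.95 CPM under vehicle (SD, n = 10), 8.16 ± 2.39 under OCA (SD, n = 9), and 16.97 ± 5.31 under INT-787 (SD, n = 9). The log2 fold change between the drugs was 1.06 (adjusted p = 0.000643), and that against vehicle under INT-787 was 0.27 (adjusted p = 0.323). Unlike *Marco* and *Cd163*, it passed in 28 of 28 fits without 1 mouse, under 11 of 11 other settings that tested it, and without INT-787 replicates 5 and 8 (adjusted p = 0.00480).

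Transcription factors and niche signals were examined next. Of 10 macrophage transcription factors, *Spi1* (-0.54, adjusted p = 0.00840), *Zeb2* (-0.52, adjusted p = 0.00297), and *Irf8* (-0.41, adjusted p = 0.0405) fell under INT-787 and 0 passed under OCA by edgeR (2 at an unadjusted p under 0.05). *Irf8* kept its call in 16 of 28 fits without 1 mouse. *Zeb2* helps keep Kupffer cell identity, and *Irf8* shapes monocytes and their descendants. *Nr1h3*, which encodes the liver X receptor alpha needed by Kupffer cells, and *Id3*, another Kupffer cell regulator, were at 0.06 and -0.05 under INT-787 and did not pass (adjusted p = 0.750 and 0.899). Of 10 niche signals and receptors, *Bmp10*, a ligand for endothelial and Kupffer cell receptors, passed, at 0.77 against vehicle (adjusted p = 0.0459) and 1.03 against OCA (adjusted p = 0.0241). The first of these was kept in 13 of 28 fits without 1 mouse. The growth factors of *Csf1r*, *Csf1* and *Il34*, were at -0.28 and -0.37 under INT-787 (adjusted p = 0.106 and 0.0864) and at -0.11 and -0.47 under OCA (adjusted p = 0.698 and 0.0604).

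Relatives of the members were checked for the same pattern. Of 13, 9 passed the filter on low counts. *Msr1*, a class A scavenger receptor like *Marco*, fell under INT-787 by 0.72 on the log2 scale (adjusted p = 0.000411), and *Scara5*, a ferritin receptor of the same family expressed outside macrophages, by 3.23 (adjusted p = 2.10e-05). *Adgre4*, a relative of *Adgre1*, fell under OCA by 0.70 (adjusted p = 0.0357), a call kept in 17 of 28 fits without 1 mouse. *Scara5* was also lower under INT-787 than under OCA (-1.86, adjusted p = 0.0324), but not in 8 of 28 fits without 1 mouse.

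Markers of other cells moved with treatment as well. Of 8 endothelial markers *Fcgr2b* fell under INT-787 (-0.43, adjusted p = 0.0108), of 8 stellate cell markers *Des* and *Lrat* fell (-0.58 and -0.55, adjusted p = 0.00799 and 0.00404), of 6 cell cycle genes *Mki67*, *Ccna2*, and *Birc5* fell (-0.88, -0.999, and -1.05, adjusted p of at most 0.0146), and of 7 hepatocyte markers *Alb* and *Tat* rose (0.45 and 0.75, adjusted p = 0.0247 and 0.00165). The endothelial count was 1 to 4 with 1 mouse left out (4 without INT-787 replicate 2), 4 with upper-quartile normalization, and 3 with DESeq2. The stellate count of 2 became 4 with upper-quartile normalization and 3 with DESeq2, and the cell cycle count was 3 to 5 with 1 mouse left out (5 without INT-787 replicate 5). *Alb* under INT-787 lost its call without INT-787 replicate 6 (adjusted p = 0.0617) and passed under 9 of 12 other settings. Under OCA *Alb*, *Tat*, and *Fgb* rose (0.62, 0.61, and 0.36, adjusted p of at most 0.0377; *Fgb* in 16 of 28 fits without 1 mouse and under 5 of 12 other settings; *Tat* not without OCA replicate 9, adjusted p = 0.0753, nor without vehicle replicates 5 and 6, adjusted p = 0.0636, each of which left 1 hepatocyte marker called), as did *Lum* of the stellate list (0.71, adjusted p = 0.0465, kept in 10 of 28 fits without 1 mouse). The summed hepatocyte markers ranged from 62663 to 138363 CPM under vehicle, from 108034 to 200091 under OCA, and from 95716 to 168106 under INT-787, and their part in the lower CPM of macrophage genes was not tested. Of 2 B cell markers tested (of 4), *Cd79b* fell under INT-787 (-0.86, adjusted p = 0.00534), and of the T and NK cell (4 of 6 tested), neutrophil (3 of 6), and dendritic cell markers (5 of 6) 0 of those tested passed by edgeR in any comparison (at most 1 of a list at an unadjusted p under 0.05). *Ecm1* of the stellate list was higher (0.57, adjusted p = 0.00315) and *Lum*, *Serpina1c* of the hepatocyte list, and *Cdk1* of the cell cycle list were lower under INT-787 than under OCA (-1.09, -0.64, and -0.93, adjusted p of at most 0.0306). *Serpina1c* kept its call in 19 of 28 fits without 1 mouse and lost it without INT-787 replicates 5 and 8 (adjusted p = 0.0908), and *Cdk1* lost its call without OCA replicate 8 (adjusted p = 0.0901). *Krt19*, *Krt7*, *Epcam*, and *Sox9* of the cholangiocyte list did not pass either, its 1 call being *Spp1*, which lipid-associated macrophages share (-0.74 under INT-787, adjusted p = 0.00207).

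Within a treatment and with all mice kept, most pairs of resident genes varied together from mouse to mouse. The log2 CPM of each gene was centered on its group mean, and 45 pairs were correlated over 28 mice. Pearson's r passed an adjusted p of 0.05 (permutation of mice within groups, Benjamini-Hochberg over 45 pairs) for 14 of 21 pairs of resident genes (median r, 0.61), for 1 of 3 pairs of shared genes, and for 0 of 21 pairs of a resident with a shared gene (median r, 0.14). Spearman's rho passed for 13, 1, and 0 of these pairs, and both measures passed for 12 of the 21 resident pairs. Without OCA replicate 2, Pearson's r passed for 12, Spearman's rho for 10, and both for 9 of the 21 resident pairs. The median r of resident with shared genes was -0.04 without OCA replicate 2, with 8 of 21 pairs above 0 instead of 17, and 0.23 without INT-787 replicate 8, when Pearson's r passed for 1 of these 21 pairs and for 2 of 3 pairs of shared genes. The genes of a mouse share a library and its depth, and the 2 classes were not compared by a test.

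*Timd4*, *Marco*, and *Cd163* followed each other closely. For *Timd4* with *Marco*, r was 0.86 and rho 0.85 (n = 28 mice, permutation adjusted p = 0.000112 and 9e-05). Without vehicle replicate 6 and INT-787 replicate 4, the 2 mice farthest from the median of *Timd4*, r was 0.79. For *Timd4* with *Cd163*, r was 0.81 and rho 0.84 (permutation adjusted p = 0.00015 and 9e-05), and r was 0.80 without the same 2 mice. For *Marco* with *Cd163*, r was 0.76 and rho 0.76 (permutation adjusted p = 0.000257 and 9e-05), and r was 0.66 without INT-787 replicate 8 and vehicle replicate 6, the 2 farthest.

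*Clec4f* joined this group with the abundant genes. With *Folr2*, its r was 0.79 and rho 0.79 (n = 28 mice, permutation adjusted p = 0.000112 and 9e-05; r = 0.82 without the 2 farthest mice), and with *Timd4*, r was 0.75 and rho 0.78 (permutation adjusted p = 0.000112 and 9e-05; r = 0.79 without the 2 farthest). *Vsig4* with *Cd5l* had an r of 0.71 and a rho of 0.60 (permutation adjusted p = 0.00015 and 0.00625), falling to 0.57 without OCA replicate 2 and vehicle replicate 9. The pair of *Vsig4* and *Marco* did not pass (r = 0.28, rho = 0.21, permutation adjusted p = 0.303 and 0.450; r = 0.12 without the 2 farthest).

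Among the shared genes, *Csf1r* with *Adgre1* had an r of 0.73 and a rho of 0.66 (n = 28 mice, permutation adjusted p = 0.00103 and 0.00163; r = 0.58 without OCA replicates 2 and 8). *Csf1r* with *C1qa* did not pass (r = 0.48, rho = 0.37, permutation adjusted p = 0.0831 and 0.174), and without OCA replicates 2 and 8 its r was 0.15, so that relation rested on these mice. *Clec4f* had an r of -0.10 with *Csf1r* and of -0.18 with *C1qa* (rho, -0.09 and -0.16; permutation adjusted p of at least 0.543; r = 0.21 and 0.14 without the 2 farthest mice).

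**Figure D4:**
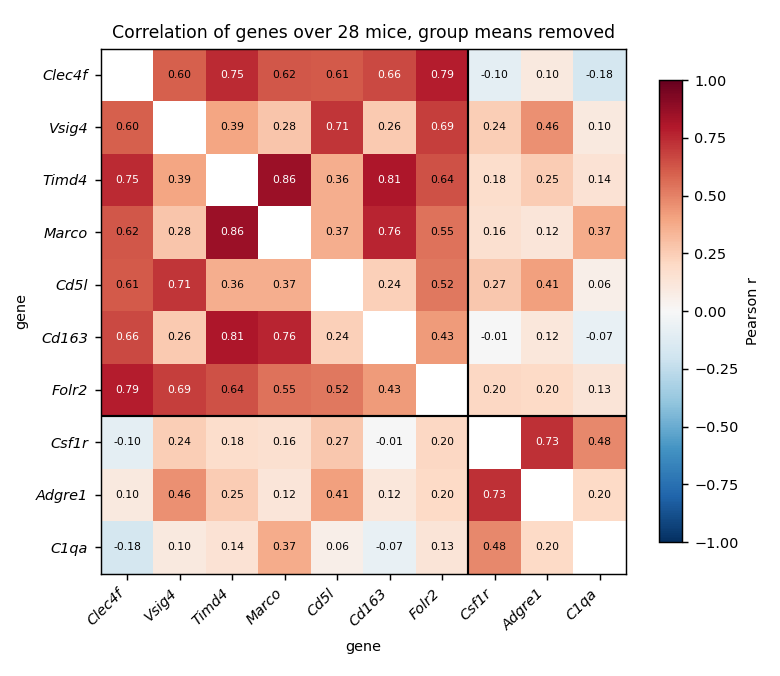
Pearson r between the members over 28 mice after group means of log2 CPM were removed (color scale from -1 to 1); black lines part the 7 resident from the 3 shared genes. Values reach 0.86 (*Timd4* with *Marco*) in the resident block and lie between -0.18 and 0.46 where a resident gene meets a shared gene.

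OCA replicates 2 and 8, chosen after their values were seen, stood at opposite ends of the group for the summed resident members and were both high for the summed shared members. OCA replicate 2 had the highest summed resident members of its group, 578 CPM against a group median of 275 CPM, together with high summed shared members (407 CPM). OCA replicate 8 had the lowest summed resident members of the group, 181 CPM, with the highest summed shared members, 410 CPM (group median, 220 CPM). In replicate 8 the summed lipid-associated markers (2381 CPM; group median, 1431 CPM), monocyte markers (81.4 CPM; group median, 44.6 CPM), and cell cycle genes (82.0 CPM; group median, 30.6 CPM) were also the highest of the group. That mouse was the highest of 9 for 13 of the 18 lists, among them T and NK cell (9.06 CPM), B cell (3.10 CPM), neutrophil (10.8 CPM), and dendritic cell markers (10.49 CPM), so the high sums were not limited to macrophage lists. In replicate 2, by contrast, the lipid-associated markers were 8th of 9 (930 CPM) and the monocyte markers 6th of 9 (43.1 CPM).

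The genes outside the list most like the members were named by the mean of their correlations. Nearest to the 7 resident genes over 28 mice were *Adgre4* (mean r, 0.63), *Clec4n* (0.60), *Treml4* (0.60), *Cd300ld* (0.59), and *Fcna* (0.57). Nearest to the 3 shared genes were *Mpeg1* (mean r, 0.68), *Sirpa* (0.67), *Cybb* (0.66), *Slfn5* (0.66), and *Inpp5d* (0.66). Of the first 5, *Cd300ld* fell under INT-787 (-0.42, adjusted p = 0.0415), and *Adgre4* and *Fcna* under OCA, as given above. Of the second 5, *Mpeg1*, which encodes the pore-forming perforin-2 of macrophages, fell under INT-787 from 229 ± 28.6 CPM (SD, n = 10) to 136 ± 18.1 CPM (SD, n = 9; log2 fold change -0.76, adjusted p = 2.99e-05) and was lower than under OCA (-0.54, adjusted p = 0.00858). *Slfn5* and *Inpp5d* fell as well (-0.50 and -0.59, adjusted p = 0.00150 and 0.00243), whereas *Sirpa* and *Cybb* were at -0.23 and -0.33 and did not pass (adjusted p = 0.240 and 0.128).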

How the data were processed

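Liver messenger RNA of 28 mice (vehicle 10, OCA 9, INT-787 9) was sequenced from stranded libraries. The authors aligned reads to GRCm38 with Ensembl annotation by STAR and deposited raw counts of reads per Ensembl gene, without normalization. The counting program, its use of strand, and any gene filter are not given in the sources used here, and 0 columns belonged to other samples. Groups came from the sample labels, which name mice as separate replicates.

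Of 21935 genes, 21858 matched a symbol in GENCODE (GRCm38). Counts were analysed with R 4.3.3 and edgeR 4.0.16: filterByExpr on the 3 groups (12580 genes), TMM normalization, and the quasi-likelihood test (glmQLFit, glmQLFTest) in 1 model of 28 mice without covariates. Benjamini-Hochberg adjustment ran over all tested genes, and genes at an adjusted p of at most 0.05 were called. CPM used TMM-scaled totals, and log2 CPM for correlations used a prior count of 2 and 100000 permutations within groups. No 2 of the 28 libraries were closer than a chi-square of 2.97 per gene, so each counted as 1 mouse. Python 3.11.15, numpy 2.4.6, pandas 2.3.3, scipy 1.17.1, and matplotlib 3.10.9 were used for the rest. The edgeR script was tested on simulated counts.

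The members and the 18 gene lists were chosen with earlier results of these data known. Named are all members, up to 4 called genes per list and comparison by absolute log2 fold change, further list genes where the text singles them out after their values were seen (*C1qb*, *C1qc*, *Clec1b*, *Nr1h3*, *Id3*, *Csf1*, *Il34*, and the cholangiocyte genes), and the 5 genes most correlated with each class. Alternatives were other scalings in edgeR (size factors of DESeq2, upper quartile), other count filters, DESeq2 1.42.0, limma-voom (limma 3.58.1), only the 2 groups compared, the replicate number or the set of neighboring sample numbers as a factor, leaving out vehicle replicates 5 and 6 or each mouse, and a required absolute log2 fold change of 1. Leaving out INT-787 replicates 5 and 8 together, and OCA replicate 2 in the correlations, was chosen after the data were seen.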

Additional observations from a re-analysis of the deposited data

Results flagged for a closer look

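Each gene was examined in each treatment group for a highest or lowest mouse set far apart from the rest (Dixon's criterion), 30 groups of mice in all, of which 7 held such a mouse. Chance alone sets off about 1 group in 20 where values are normally distributed and groups are independent. The CPM of *Marco* under vehicle had an SD (4.51) above its mean (3.79), and the genes share their mice. The 7 of 30 therefore cannot be held against that rate. OCA replicate 2 accounted for 5 of the 7, as the highest OCA mouse for *Vsig4* (50.6 CPM), *Timd4* (5.43 CPM), *Marco* (7.77 CPM), *Cd5l* (395 CPM), and *Folr2* (19.4 CPM). Without that mouse *Folr2* was lower under OCA than under vehicle (log2 fold change -0.78, adjusted p = 0.00276 by edgeR's quasi-likelihood test), and *Cd5l* was lower under INT-787 than under vehicle (-0.42, adjusted p = 0.0146). Vehicle replicate 10 stood apart for *Marco* at 15.1 CPM, and OCA replicate 5 for *Cd163* at 1.48 CPM. INT-787 replicate 8, at 68.2 CPM of *Marco*, did not meet the criterion because replicate 5, at 36.7 CPM, lay next to it.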

How the results depend on the processing

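The 5 fold changes of members that passed the test with all mice and the settings of the report kept their sign under each alternative that tested them. The 3 calls for INT-787 against vehicle became 2 to 4 with 1 mouse left out, and 0 where an absolute log2 fold change of 1 was required as well. For OCA against vehicle the count of members called was 0, but 1 (*Folr2*) with DESeq2's size factors, upper-quartile normalization, at least 10 counts in every mouse, DESeq2, or limma-voom, and 0 to 1 with 1 mouse left out. For INT-787 against OCA the 2 calls became 0 with limma-voom, with the replicate block, with the set of sample numbers as a factor, without INT-787 replicates 5 and 8, and with at least 10 counts in every mouse (which leaves *Timd4*, *Marco*, and *Cd163* untested), 1 with only the 2 groups compared, and 0 to 2 with 1 mouse left out. The deviations of same-numbered mice had an r over 0.1 for 11 of 27 pairs (-0.24 to 0.43), 8 of 9 pairs of numbers 1 to 3 and 3 of 18 pairs of numbers 4 to 9, and mice of the same set of sample numbers for 13 of 25 pairs. Not every pair exceeded 0.1, so neither number was taken to pair the mice in the main model. This criterion cannot exclude a grouping shared by part of the mice, which the main model does not include. Under the replicate block *Marco* was at 1.79 (adjusted p = 0.161) and *Cd163* at 1.79 (adjusted p = 0.0567) against OCA.

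Requiring a log2 fold change of 1 left 363, 154, and 134 of the 2469, 830, and 677 genes called (INT-787 and OCA, each against vehicle, and INT-787 against OCA), and 5, 0, and 7 of the 42, 7, and 24 calls in the gene lists that are not members. With 1 mouse left out, the genes called for INT-787 against OCA numbered 443 (without OCA replicate 8) to 888, and the list genes called for OCA against vehicle 2 (without OCA replicate 9) to 9; without vehicle replicates 5 and 6 the latter were 3. Upper-quartile normalization moved the share of calls that were higher from 51.7% to 37.5% for INT-787 against vehicle and from 62.9% to 52.3% for OCA against vehicle. Of the correlated pairs, 15 became 18 without INT-787 replicate 8, 17 without vehicle replicates 5 and 6, and 13 without OCA replicate 2. Depth limits *Timd4*, *Marco*, and *Cd163*, which had under 10 counts in 6, 4, and 12 of the 28 libraries.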
